A study of Mus musculus with 149 samples.

Results

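The comparison described here is the lung response of naive BALB/c mice to 1500 ng of thymic stromal lymphopoietin (TSLP), set against saline, 6 h after the challenge. Its members were set by the labels, and the comparison was chosen with earlier results of these data known. They are all 8 arrays of naive animals given 1500 ng TSLP and all 8 of naive animals given saline at 6 h. This makes 16 arrays, from 2 of the series' 20 groups of 6 to 8 arrays each. The study asked how TSLP challenge affects airway inflammation in naive mice and in mice sensitized with ovalbumin (OVA), and it combined saline, buffer alone and 150, 500 or 1500 ng TSLP with lungs taken at 6 or 24 h. Whole lungs were profiled on Affymetrix arrays, 1 array per animal, so the number of arrays limits the precision. All mice were on the BALB/c background, and the naive mice had not been sensitized. The labels give no age, sex or route of challenge, and they do not state what the TSLP was dissolved in. They list buffer alone (0.1% MSA, an abbreviation that is not expanded) as a separate challenge, and its 6 arrays from naive mice at 6 h are therefore set beside the saline values below.

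TSLP is a cytokine made mainly by epithelial cells of the airways, skin and gut. It acts through a receptor built from Crlf2 and the interleukin-7 receptor chain Il7r, and signals through Janus kinases and STAT5. In the lung it is known as an alarm signal ahead of type 2 inflammation: dendritic cells, group 2 innate lymphoid cells, T cells, basophils and mast cells carry the receptor, and basophils in particular can expand in response to it.

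Expression values are log2 units on the scale of robust multi-array averaging (RMA), so a difference of 1 is a 2-fold change. A gene was called changed at an adjusted p under 0.05 (limma, Benjamini-Hochberg adjustment over all genes). By that rule 5774 of 13494 genes (42.8%) differed between 1500 ng TSLP and saline, 2421 higher (17.9%) and 3353 lower (24.8%), and the median difference over all genes was -0.03. Most of the differences were small: 42 genes rose (0.311%) and 7 fell (0.0519%) by 2-fold or more, together 0.363% of all genes. Values of the 16 arrays did not overlap between the groups for 475 genes (3.52%).

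The saline arrays differed among themselves in ways that touch many of these values. The log2 difference between the 3′ and 5′ probe sets of beta-actin, a measure of RNA quality that is larger where the 5′ part of the transcript is less well represented, was 2.42 ± 0.51 (SD, n = 8) in the saline group and 1.61 ± 0.26 (SD, n = 8) in the 1500 ng group. The 2 groups differed by -0.81 (SE 0.20, exact two-sided permutation test, p = 0.000622). In naive mice at 6 h the measure was 2.14 ± 0.31 (SD, n = 6) with buffer. After 150 and 500 ng TSLP it was 1.64 ± 0.31 and 1.44 ± 0.21 (SD, n = 8 each). The 1500 ng group thus stood lower than buffer as well, a difference that was not tested. Only the highest 1500 ng array, at 2.05, reached into the saline range of 1.91 to 3.42, and saline replicates 6 and 5 stood highest at 3.42 and 2.92. Saline replicate 6 also carried skeletal muscle RNA, with Tnnc2, a muscle troponin, at 13.36 against 6.75 to 7.32 in the other 7. The same 3′ minus 5′ measure for pyruvate carboxylase was 2.49 ± 0.14 and 2.46 ± 0.17 (SD, n = 8 each; difference -0.03, exact permutation test, p = 0.668).

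With the beta-actin measure as a covariate, 764 genes (5.66%) differed, 348 higher (2.58%) and 416 lower. Of these, 298 rose (2.21%) and 358 fell (2.65%) under both fits. The covariate's slope rests on every array of the series. In the 16 arrays alone without the covariate, 4070 genes were called. Of 198 genes checked there, 41 lost their call and 8 gained one. Among those lost were Cxcl2 (adjusted p = 0.0791), Ccl17 (adjusted p = 0.0789), Lcn2 (adjusted p = 0.0737) and Cd274 (adjusted p = 0.0606). In the 16 arrays alone with the covariate, limma called no gene, with 2827 genes (21%) at an unadjusted p under 0.05; Mcpt8 then differed by 1.44 (adjusted p = 0.0949), Per2 by 0.99 (adjusted p = 0.0661) and Cyp4f39 by -0.74 (adjusted p = 0.0594). Wherever a value with the covariate is given below, it is from the fit over all arrays. Buffer alone differed from saline for 2014 genes (14.9%; 8.09% higher), and 1500 ng TSLP differed from buffer for 2071 (15.3%). The lower doses of 150 and 500 ng differed from saline for 50.4% and 57.5% of genes, and 1500 ng in sensitized mice for 62.1%. These companion comparisons share arrays with the main one, so only their values are set side by side. Where a named call was lost with the covariate or against buffer, that value is given in the same paragraph; the part of RNA quality or of the reference group in the result was not tested.

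**Figure D1:**
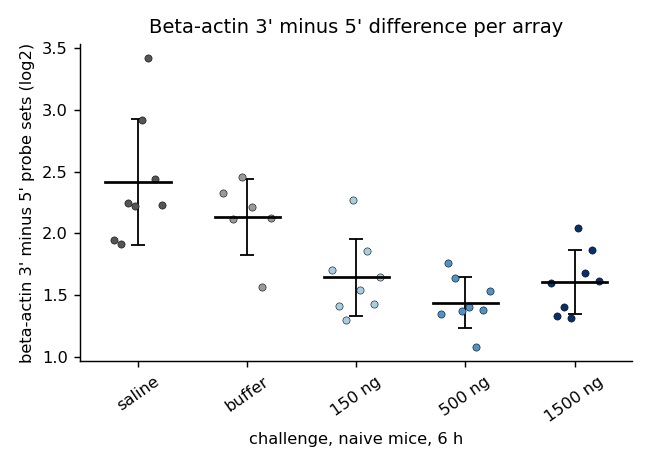
Beta-actin 3′ minus 5′ log2 difference (vertical axis) for each array of naive mice at 6 h, by challenge; points are arrays, horizontal bars means and whiskers SDs. The saline arrays lie between 1.91 and 3.42, and the 1500 ng arrays between 1.31 and 2.05.

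The promoters of 5 genes that rose are shown first, because each holds a short sequence that a factor of the pathways below is known to bind. The windows run from 250 bases before to 50 bases after the annotated start and are RefSeq sequence of the mouse build GRCm38.p6, written 5′ to 3′ on the gene's strand. Capitals mark 2 motifs searched on both strands, both of which read the same on either strand: TTCNNNGAA, the motif bound by STAT5, and CACGTG, the E-box bound by the clock factors Clock and Arntl. The first is present in 8.3% and the second in 7.15% of all 32851 windows of that length. A match describes the letters only.

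Ccl17 (plus strand, chr8:94810203-94810502) encodes a chemokine that draws type 2 T cells, and Klf9 (plus strand, chr19:23140976-23141275) a transcription factor induced by glucocorticoids. Each window holds 1 match to the STAT5 motif.
Ccl17: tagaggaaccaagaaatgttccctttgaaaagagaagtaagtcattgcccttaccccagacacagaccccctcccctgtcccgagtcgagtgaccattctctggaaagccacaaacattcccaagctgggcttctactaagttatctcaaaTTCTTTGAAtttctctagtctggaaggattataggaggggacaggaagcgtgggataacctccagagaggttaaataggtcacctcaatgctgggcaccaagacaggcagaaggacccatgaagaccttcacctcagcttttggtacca
Klf9: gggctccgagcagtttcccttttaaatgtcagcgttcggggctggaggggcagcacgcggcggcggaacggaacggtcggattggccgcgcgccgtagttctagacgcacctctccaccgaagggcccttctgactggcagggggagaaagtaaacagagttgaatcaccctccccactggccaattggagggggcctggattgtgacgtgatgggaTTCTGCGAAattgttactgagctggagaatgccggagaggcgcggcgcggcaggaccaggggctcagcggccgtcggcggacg

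Cry1 (minus strand, chr10:85185005-85185304) and Per1 (plus strand, chr11:69098699-69098998) encode repressors of the circadian clock, and Fkbp5 (minus strand, chr17:28486100-28486399) a co-chaperone of the glucocorticoid receptor. Each window shown holds 1 E-box. Per1 has 2 windows, of which 1 is shown. The other holds no E-box and 1 match to the STAT5 motif, TTCCACGAA, 210 bases before its start.
Cry1: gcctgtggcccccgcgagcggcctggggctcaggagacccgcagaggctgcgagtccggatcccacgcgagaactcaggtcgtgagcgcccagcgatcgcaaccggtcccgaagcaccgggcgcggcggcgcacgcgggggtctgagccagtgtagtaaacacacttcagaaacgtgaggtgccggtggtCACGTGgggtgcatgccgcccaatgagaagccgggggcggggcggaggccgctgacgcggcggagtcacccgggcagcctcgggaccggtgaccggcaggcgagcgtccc
Per1: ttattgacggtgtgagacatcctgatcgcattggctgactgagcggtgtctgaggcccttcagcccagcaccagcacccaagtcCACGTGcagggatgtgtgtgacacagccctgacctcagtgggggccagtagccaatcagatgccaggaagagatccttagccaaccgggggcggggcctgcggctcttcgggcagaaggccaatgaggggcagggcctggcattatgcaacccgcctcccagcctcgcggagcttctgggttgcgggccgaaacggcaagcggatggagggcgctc
Fkbp5: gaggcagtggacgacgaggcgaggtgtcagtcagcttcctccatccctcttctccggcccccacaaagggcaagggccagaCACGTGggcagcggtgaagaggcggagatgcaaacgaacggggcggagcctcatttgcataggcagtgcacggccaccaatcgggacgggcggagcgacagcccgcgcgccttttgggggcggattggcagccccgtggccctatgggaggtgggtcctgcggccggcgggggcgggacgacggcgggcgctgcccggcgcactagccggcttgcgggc

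The windows of Mcpt8, Cd200r3, Cyp11a1 and Cxcl2 hold neither motif, and that of Cxcl3 holds 1 E-box.

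Some basophil and mast cell genes rose after TSLP, 4 of 11 measured, beside 17.9% of all genes. None of the 11 was called between buffer and saline, where 14.9% of all genes were called. Mcpt8, a serine protease of basophil granules, ranged from 7.53 to 8.65 with a median of 8.08 in the saline group, and from 8.67 to 10.24 with a median of 9.42 in the 1500 ng group. All 8 TSLP arrays lay above all 8 saline arrays. Mcpt8 rose by 1.35 (SE 0.21, adjusted p = 1.58e-07), and by 1.42 (adjusted p = 0.000197) with the beta-actin covariate. Buffer differed from saline by 0.04 (adjusted p = 0.92), and 1500 ng TSLP from buffer by 1.30 (SE 0.23, adjusted p = 6.31e-05).

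The mean level of Mcpt8 was higher with each higher dose, although the doses were not tested against each other. It was 8.08 ± 0.37 in saline and 8.12 ± 0.74 in buffer (SD, n = 8 and 6), 8.32 ± 0.40 after 150 ng, 9.10 ± 0.39 after 500 ng and 9.42 ± 0.68 after 1500 ng (SD, n = 8 each). The difference from saline was 0.24 (adjusted p = 0.352) at 150 ng and 1.02 (adjusted p = 1.43e-05) at 500 ng, so the lowest dose did not pass the test. In a whole-lung sample, more cells of a type and more RNA per cell cannot be told apart.

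Cd200r3, an activating receptor of basophils and mast cells, ranged from 4.95 to 6.42 with a median of 5.72 in the saline group, and from 5.39 to 7.31 with a median of 6.65 in the 1500 ng group. The ranges overlapped, with 5 of the 8 TSLP arrays above the highest saline array. It rose by 0.78 (SE 0.21, adjusted p = 0.00151), with 0.77 (adjusted p = 0.0403) under the covariate and 0.81 (adjusted p = 0.00948) against buffer. Differences from saline were 0.13 (adjusted p = 0.622) at 150 ng and 0.71 (adjusted p = 0.00258) at 500 ng.

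Cyp11a1, the enzyme that cleaves the side chain of cholesterol at the start of steroid synthesis, also rose. It ranged from 6.65 to 7.67 with a median of 7.24 in the saline group, and from 7.09 to 8.58 with a median of 7.99 in the 1500 ng group, and 4 of the 8 TSLP arrays lay above the highest saline array. The rise was 0.78 (SE 0.17, adjusted p = 7.69e-05), with 0.81 (adjusted p = 0.00609) under the covariate and 0.84 (adjusted p = 0.00092) against buffer. At 150 ng the difference from saline was 0.11 (adjusted p = 0.593) and at 500 ng 0.56 (adjusted p = 0.00265). A dimmer second probe set of the gene differed by -0.11 (adjusted p = 0.512 over all probe sets).

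The 1500 ng arrays fell apart into a higher and a lower set for these genes. Replicates 1, 3, 7 and 8 held Mcpt8 between 9.85 and 10.24, and the other 4 lay between 8.67 and 8.99. The same 4 replicates were also the 4 highest for Cd200r3 (6.86 to 7.31) and for Cyp11a1 (8.33 to 8.58). The split was not particular to these genes. These replicates were the 4 highest as well for the chemokine genes Cxcl3 (9.89 to 11.58), Ccl17 (11.28 to 12.75) and Ccl12 (10.35 to 11.61), though not for Cxcl2. Replicates of a group have no order, and these values describe the animals only.

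**Figure D2:**
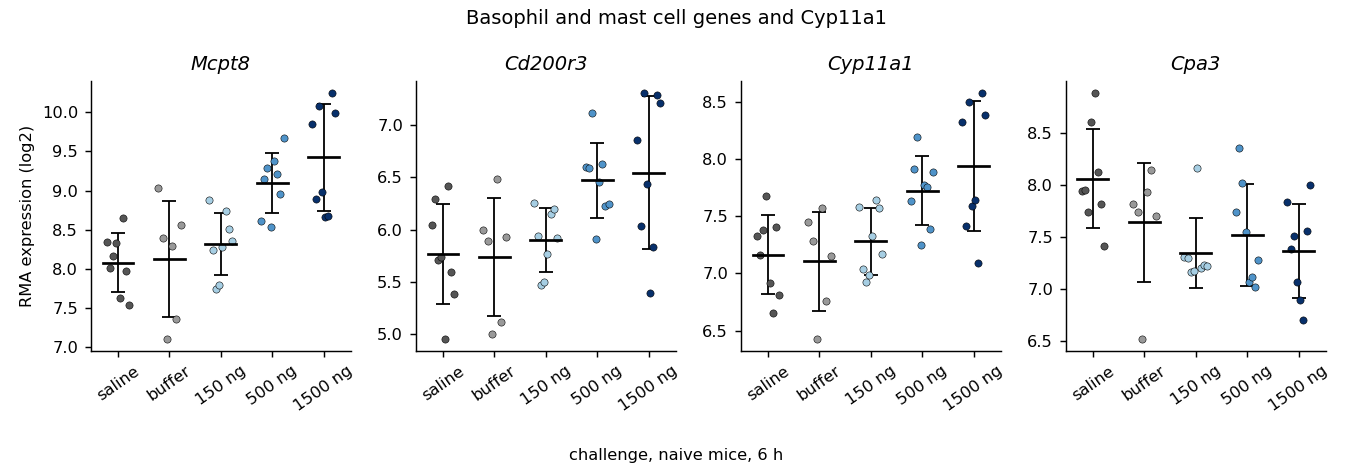
RMA expression in log2 units (vertical axes) of Mcpt8, Cd200r3, Cyp11a1 and Cpa3 in naive mice at 6 h, by challenge; points are arrays, horizontal bars means and whiskers SDs. Mcpt8 rises from a mean of 8.08 in saline to 9.42 after 1500 ng, and Cpa3 is lower after 1500 ng (7.37) than in saline (8.06).

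Of the 11 measured basophil and mast cell markers, 4 rose, 1 fell and 6 did not pass the test. Over all genes 17.9% rose and 24.8% fell. Gata2, a transcription factor that basophils and mast cells need but that lung endothelium also makes, rose by 0.50 (SE 0.10, adjusted p = 3.03e-05), and Mcpt4, a chymase of connective tissue mast cells, by 0.69 (SE 0.19, adjusted p = 0.00233). Neither passed with the covariate, at 0.32 (adjusted p = 0.0681) and 0.35 (adjusted p = 0.334). Cpa3, a carboxypeptidase of mast cells and basophils, fell by 0.69 on the log2 scale (SE 0.19, adjusted p = 0.0019), and its value with the covariate was -0.57 (adjusted p = 0.0958). The high-affinity IgE receptor chains Ms4a2 and Fcer1a differed by 0.34 (adjusted p = 0.121) and -0.03 (adjusted p = 0.908) from saline. Against buffer Ms4a2 rose by 0.60 (adjusted p = 0.0254), and the histamine-producing enzyme Hdc fell by 0.26 (adjusted p = 0.00723), compared with -0.14 (adjusted p = 0.0644) against saline. The calls not made against buffer were those of Gata2 0.21 (adjusted p = 0.165), Mcpt4 0.35 (adjusted p = 0.25) and Cpa3 -0.27 (adjusted p = 0.369). Mcpt8 and Cd200r3 were the 2 members called under both fits and against buffer.

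In the steroid list, 2 of 6 measured members rose, beside 17.9% of all genes. Besides Cyp11a1 this was Cyp21a1, the steroid 21-hydroxylase, by 0.20 (SE 0.09, adjusted p = 0.046) or 0.31 (adjusted p = 0.037) with the covariate. Cyp21a1 lost its call without any 1 of saline replicates 1, 2, 7 or 8 or 1500 ng replicates 1, 2, 3, 5 or 6, at 0.17 to 0.20 (adjusted p = 0.0591 to 0.124). Against buffer Cyp21a1 differed by 0.15 (adjusted p = 0.246). Star, which moves cholesterol into mitochondria, differed by -0.20 (adjusted p = 0.05) from saline, and its other probe sets by -0.25 (adjusted p = 0.0112) and -0.20 (adjusted p = 0.0416), tested over all probe sets. It fell by 0.37 against buffer (adjusted p = 0.00296).

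Neutrophil chemokines and acute inflammatory genes rose as well, and buffer alone also raised many of them over saline. Of 15 measured members of that list, 8 rose and none fell after TSLP, and 9 of the 15 rose with buffer. Over all genes 17.9% rose after TSLP and 8.09% with buffer. Against buffer, 1500 ng TSLP called none of the 15, beside 15.3% of all genes. Cxcl3, a chemokine for neutrophils and the largest rise of all named genes, ranged from 3.88 to 10.58 with a median of 5.86 in the saline group, and from 6.37 to 11.58 with a median of 9.57 in the 1500 ng group. It rose by 3.03 (SE 0.71, adjusted p = 0.000269) or 2.76 (adjusted p = 0.0278) with the covariate. Buffer exceeded saline by 2.39 (SE 0.77, adjusted p = 0.0232), and TSLP differed from buffer by 0.65 (adjusted p = 0.601).

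The saline animals themselves lay at separate levels for Cxcl3. Replicates 1 to 4 held 7.18 to 10.58 and replicates 5 to 8 held 3.88 to 4.54, so the 1500 ng range overlapped the upper set alone. Cxcl2, a related neutrophil chemokine, ranged from 5.01 to 10.26 with a median of 7.07 in the saline group, and from 6.67 to 10.87 with a median of 8.92 in the 1500 ng group. It rose by 1.74 (SE 0.54, adjusted p = 0.00573), against 1.80 (adjusted p = 0.024) for buffer over saline; TSLP against buffer had the opposite sign, -0.06 (adjusted p = 0.96). With the covariate the Cxcl2 difference was 1.32 (adjusted p = 0.181). In the 16 arrays alone without the covariate Cxcl2 did not pass (adjusted p = 0.0791).

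The remaining members that rose were Cxcl1, another neutrophil chemokine, by 0.97 (adjusted p = 0.0366), and Saa3, an acute phase protein, by 0.88 (adjusted p = 0.00634). Lcn2, an iron-scavenging protein of epithelium and neutrophils, rose by 0.44 (adjusted p = 0.000861), and the prostaglandin synthase Ptgs2 by 0.47 (adjusted p = 0.0124). Il1rn, the antagonist of the interleukin-1 receptor, rose by 0.74 (adjusted p = 0.0282), and Vcam1, an adhesion molecule of vessel walls, by 0.37 (adjusted p = 0.0177). Cxcl1 lost its call without any 1 of saline replicates 4, 5, 6, 7 or 8 or 1500 ng replicates 1, 7 or 8, at 0.69 to 0.96 (adjusted p = 0.051 to 0.157). Il1rn lost its call without any 1 of saline replicates 5, 6, 7 or 8 or 1500 ng replicates 1 or 8, at 0.48 to 0.67 (adjusted p = 0.0557 to 0.168). Vcam1 lost its call without any 1 of saline replicates 1, 4 or 7 or 1500 ng replicate 1, at 0.25 to 0.32 (adjusted p = 0.0535 to 0.122). None of these 6 passed with the covariate, which gave Cxcl1 0.89 (adjusted p = 0.225), Saa3 0.80 (adjusted p = 0.111), Lcn2 0.38 (adjusted p = 0.0557), Ptgs2 0.33 (adjusted p = 0.275), Il1rn 0.17 (adjusted p = 0.79) and Vcam1 0.25 (adjusted p = 0.337). Against buffer they gave Cxcl1 -0.41 (adjusted p = 0.543), Saa3 -0.02 (adjusted p = 0.97), Lcn2 0.02 (adjusted p = 0.919), Ptgs2 -0.19 (adjusted p = 0.478), Il1rn 0.13 (adjusted p = 0.806) and Vcam1 -0.11 (adjusted p = 0.639). The cytokine genes Il1b and Tnf did not pass, at 0.45 (adjusted p = 0.0753) and 0.31 (adjusted p = 0.216).

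No marker of neutrophils themselves was called higher, beside 17.9% of all genes. Of 8 measured, 7 did not pass, among them the calgranulin S100a8 at -0.12 (adjusted p = 0.534). The exception was Ngp, a granule protein of immature neutrophils, which ranged from 8.18 to 9.87 with a median of 8.83 in the saline group, and from 6.51 to 9.78 with a median of 7.56 in the 1500 ng group. The ranges overlapped widely; Ngp fell by 1.12 on the log2 scale (SE 0.38, adjusted p = 0.0116), and it differed by -1.03 (adjusted p = 0.137) under the covariate fit and -0.34 (adjusted p = 0.603) relative to buffer.

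Among chemokines for monocytes and eosinophils, 2 of 9 measured members rose and none fell, beside 17.9% of all genes higher and 24.8% lower. Ccl12, a monocyte chemokine, ranged from 7.79 to 10.73 with a median of 9.16 in the saline group, and from 9.46 to 11.61 with a median of 10.18 in the 1500 ng group. The upper saline arrays overlapped the TSLP arrays. It rose by 1.09 (SE 0.27, adjusted p = 0.000513) or 0.97 (adjusted p = 0.0399) with the covariate; against buffer the difference was 0.41 (adjusted p = 0.336). Ccl4, a chemokine for T cells and natural killer cells, rose by 0.40 (adjusted p = 0.0474), and differed by 0.28 (adjusted p = 0.387) under the covariate fit and 0.19 (adjusted p = 0.499) relative to buffer. Ccl4 lost its call without any 1 of saline replicates 1, 3, 4, 5, 6, 7 or 8 or 1500 ng replicates 1, 2, 7 or 8, at 0.26 to 0.41 (adjusted p = 0.0504 to 0.212). The eotaxins Ccl11 and Ccl24, which draw eosinophils, differed by 0.65 (adjusted p = 0.0849) and -0.22 (adjusted p = 0.652).

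Of 9 dendritic cell chemokine and costimulation genes, 2 rose and 2 fell, beside 17.9% of all genes higher and 24.8% lower. Ccl17, whose promoter is printed above, ranged from 9.38 to 12.03 with a median of 10.16 in the saline group, and from 10.13 to 12.75 with a median of 11.08 in the 1500 ng group, with overlap of the groups. It rose by 0.90 (SE 0.31, adjusted p = 0.0121). The call was lost with the covariate, where the difference was 0.99 (adjusted p = 0.0695), and against buffer, where it was 0.26 (adjusted p = 0.628). Without 1500 ng replicate 1 Ccl17 differed by 0.68 (adjusted p = 0.0685). In the 16 arrays alone without the covariate Ccl17 did not pass (adjusted p = 0.0789). Cd274, the ligand of the inhibitory receptor PD-1, rose by 0.43 (adjusted p = 0.00772) but differed by 0.05 (adjusted p = 0.865) with the covariate. Ccr7, which guides dendritic cells and T cells to lymph nodes, fell by 0.36 on the log2 scale (adjusted p = 0.0229) and Cd86, a costimulatory ligand, by 0.31 (adjusted p = 0.0268); with the covariate they differed by -0.40 (adjusted p = 0.0979) and -0.21 (adjusted p = 0.357). Ccr7 lost its call without any 1 of saline replicates 1 or 5 or 1500 ng replicate 6, at -0.32 to -0.31 (adjusted p = 0.0529 to 0.0623). Cd86 lost its call without any 1 of saline replicates 4 or 6 or 1500 ng replicate 2, at -0.28 to -0.25 (adjusted p = 0.0603 to 0.0931). Against buffer, Cd274 0.29 (adjusted p = 0.167), Ccr7 -0.37 (adjusted p = 0.0607) and Cd86 -0.16 (adjusted p = 0.409) did not pass. Ccl22, which shares the receptor of Ccl17, differed by 0.43 (adjusted p = 0.248).

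The type 2 cytokines were not detectably changed. Il13 ranged from 5.70 to 6.31 with a median of 6.05 in the saline group, and from 5.86 to 6.46 with a median of 6.10 in the 1500 ng group. Il13 differed by 0.10 (adjusted p = 0.812), Il4 by 0.07 (adjusted p = 0.799) and Il5 by -0.03 (adjusted p = 0.945). The alarmin Il33 differed by 0.27 (adjusted p = 0.0674) and endogenous Tslp by -0.11 (adjusted p = 0.442). Of 12 measured members of this list, 1 rose, 2 fell and 9 did not pass, beside 17.9% of all genes higher and 24.8% lower. Il13ra1, a chain of the interleukin-13 receptor, rose by 0.40 (SE 0.09, adjusted p = 0.000285) and by 0.38 (adjusted p = 0.00639) against buffer, but differed by 0.19 (adjusted p = 0.252) with the covariate, and its 4 probe sets ran from -0.27 to 1.33. Il17rb, a chain of the interleukin-25 receptor, fell by 0.40 on the log2 scale (adjusted p = 0.0351), and Stat6, which carries interleukin-4 and interleukin-13 signals, by 0.11 (adjusted p = 0.0492). A dimmer second probe set of Stat6 ran the other way, at 0.23 (adjusted p = 0.00676 over all probe sets). With the covariate Il17rb differed by -0.09 (adjusted p = 0.812), and Stat6 had the opposite sign, 0.04 (adjusted p = 0.658). Relative to buffer neither passed, with Il17rb -0.13 (adjusted p = 0.649) and Stat6 -0.03 (adjusted p = 0.779). Il17rb lost its call without any 1 of saline replicates 4 or 5 or 1500 ng replicates 1, 2, 4 or 6, at -0.38 to -0.32 (adjusted p = 0.0568 to 0.111). Stat6 lost its call without any 1 of saline replicates 1, 4, 5, 7 or 8 or 1500 ng replicates 1, 2, 4, 6 or 8, at -0.12 to -0.09 (adjusted p = 0.0562 to 0.153).

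The receptor and its signalling genes differed by small amounts. Crlf2 differed by -0.09 (adjusted p = 0.267) and Il7r by -0.26 (adjusted p = 0.128). Of 13 measured members of this list, 5 rose and 1 fell, none of them by more than 0.30 and none with the covariate. The shares over all genes were 17.9% higher and 24.8% lower. Those that rose were the kinase Jak1, by 0.15 (adjusted p = 0.0352), the transcription factors Stat5a by 0.24 (adjusted p = 0.00265), Stat5b by 0.17 (adjusted p = 0.00178) and Stat3 by 0.16 (adjusted p = 0.0139), and the feedback inhibitor Socs2 by 0.30 (adjusted p = 0.0169). Jak1 lost its call without any 1 of saline replicates 4, 6 or 7 or 1500 ng replicates 1, 4 or 8, at 0.11 to 0.14 (adjusted p = 0.0638 to 0.155). Without saline replicate 6 Stat5a differed by 0.14 (adjusted p = 0.0665). Without 1500 ng replicate 1 Stat3 differed by 0.12 (adjusted p = 0.0737). Without 1500 ng replicate 6 Socs2 differed by 0.25 (adjusted p = 0.0577). A second probe set of Stat5b ran the other way, at -0.55. Bcl2, a survival factor, fell by 0.15 (adjusted p = 0.00577) in the probe set used. Its other probe sets differed by 0.34 (adjusted p = 0.000154), 0.43 (adjusted p = 0.000278), 0.35 (adjusted p = 0.00076) and -0.014 (adjusted p = 0.919), tested over all probe sets. The direction for Bcl2 therefore depends on the probe set. With the covariate these 6 genes gave Jak1 0.01 (adjusted p = 0.95), Stat5a 0.07 (adjusted p = 0.572), Stat5b 0.04 (adjusted p = 0.649), Stat3 0.15 (adjusted p = 0.136), Socs2 0.10 (adjusted p = 0.653) and Bcl2 -0.07 (adjusted p = 0.407). None of the 6 passed against buffer, where the values were Jak1 -0.003 (adjusted p = 0.981), Stat5a 0.12 (adjusted p = 0.24), Stat5b 0.09 (adjusted p = 0.195), Stat3 -0.04 (adjusted p = 0.677), Socs2 0.06 (adjusted p = 0.772) and Bcl2 -0.02 (adjusted p = 0.796). Cish, the STAT5 target that feeds back on the receptor, differed by 0.31 (adjusted p = 0.0737). It did pass in the 16 arrays alone without the covariate (adjusted p = 0.0478). With the covariate in those arrays it was 0.20 (adjusted p = 0.492), and against buffer -0.01 (adjusted p = 0.97).

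Of 13 measured glucocorticoid responsive genes, 9 rose and none fell against saline. Their median difference was 0.42, beside -0.03 over all genes. The background of rises is 17.9% of genes. Buffer over saline called 4 of the 13 higher (median 0.19), and TSLP over buffer 3 of the 13 (median 0.070). Over all genes buffer exceeded saline for 8.09%, and 1500 ng TSLP exceeded buffer for 746 of 13494 genes. Fkbp5 ranged from 8.31 to 9.11 with a median of 8.74 in the saline group, and from 8.90 to 9.97 with a median of 9.53 in the 1500 ng group. The groups overlapped only between 8.90 and 9.11. Fkbp5 rose by 0.74 (SE 0.14, adjusted p = 1.08e-05), by 0.56 (adjusted p = 0.024) under the covariate fit and 0.62 (adjusted p = 0.00328) relative to buffer. Its difference from saline was 0.26 (adjusted p = 0.122) at 150 ng and 0.63 (adjusted p = 7.64e-05) at 500 ng.

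Klf9 ranged from 11.72 to 12.40 with a median of 12.06 in the saline group, and from 12.18 to 12.62 with a median of 12.54 in the 1500 ng group. It rose by 0.42 (SE 0.08, adjusted p = 2.41e-05), by 0.39 (adjusted p = 0.00829) under the covariate fit and 0.33 (adjusted p = 0.00786) relative to buffer. Zbtb16, a transcription factor strongly induced by glucocorticoids, rose by 1.24 (SE 0.34, adjusted p = 0.00163) and by 1.15 (adjusted p = 0.0216) against buffer; with the covariate it was 0.87 (adjusted p = 0.15). The others that rose were Per1, Ddit4, Errfi1, Mt2, Nr3c1 and Sgk1, by 1.14, 0.50, 0.42, 0.51, 0.26 and 0.23. Of these, Per1, Ddit4, Errfi1 and Mt2 were also called higher in buffer than in saline. Mt2 lost its call without any 1 of saline replicates 4, 5 or 7 or 1500 ng replicate 1, at 0.34 to 0.46 (adjusted p = 0.0608 to 0.16). Without saline replicate 6 Nr3c1 differed by 0.20 (adjusted p = 0.0522). Sgk1 lost its call without any 1 of saline replicates 1 or 4 or 1500 ng replicates 1, 2, 4, 7 or 8, at 0.18 to 0.21 (adjusted p = 0.0662 to 0.129). With the covariate 3 of the 13 were called, namely Fkbp5, Klf9 and Per1, and the other 5 of this group of 6 gave Ddit4 0.18 (adjusted p = 0.383), Errfi1 0.31 (adjusted p = 0.117), Mt2 0.43 (adjusted p = 0.242), Nr3c1 -0.08 (adjusted p = 0.521) and Sgk1 0.17 (adjusted p = 0.331). Against buffer none of the 6 passed, with Per1 0.34 (adjusted p = 0.281), Ddit4 0.08 (adjusted p = 0.702), Errfi1 -0.06 (adjusted p = 0.748), Mt2 -0.09 (adjusted p = 0.805), Nr3c1 0.07 (adjusted p = 0.639) and Sgk1 0.10 (adjusted p = 0.53).

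Clock genes changed in the same lungs. Of 16 measured members, 10 rose and 1 fell, beside 17.9% of all genes higher and 24.8% lower. Per1 ranged from 8.66 to 10.14 with a median of 9.40 in the saline group, and from 10.39 to 10.84 with a median of 10.61 in the 1500 ng group. All 8 TSLP arrays lay above the saline arrays. Per1 rose by 1.14 (SE 0.20, adjusted p = 2.93e-06), or 1.12 (adjusted p = 0.0019) with the covariate; buffer exceeded saline by 0.80 (adjusted p = 0.00758), and TSLP differed from buffer by 0.34 (adjusted p = 0.281).

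Per2, a partner of Per1 in the repressor complex, ranged from 9.26 to 10.02 with a median of 9.63 in the saline group, and from 10.17 to 10.95 with a median of 10.67 in the 1500 ng group, again without overlap. It rose by 0.97 (SE 0.21, adjusted p = 8.23e-05) or 0.88 (adjusted p = 0.0189) with the covariate, with 0.49 (adjusted p = 0.125) for buffer over saline and 0.48 (adjusted p = 0.133) for TSLP over buffer. Cry1 ranged from 9.13 to 9.82 with a median of 9.52 in the saline group, and from 9.67 to 10.30 with a median of 10.08 in the 1500 ng group, and rose by 0.54 (SE 0.10, adjusted p = 3.55e-06), by 0.61 (adjusted p = 0.000478) under the covariate fit and 0.47 (adjusted p = 0.00111) relative to buffer. Cry1 rose at 150 ng by 0.27 (adjusted p = 0.0137), and at 500 ng differed from saline by 0.09 (adjusted p = 0.449), which did not pass. Arntl, the activator that Per and Cry proteins repress, fell by 0.49 on the log2 scale (SE 0.17, adjusted p = 0.0122), with -0.63 (adjusted p = 0.0314) under the covariate and -0.42 (adjusted p = 0.0624) without saline replicates 5 and 6, and it did not pass against buffer (-0.33, adjusted p = 0.198). The remaining members called higher rose by 0.20 to 0.40, and none of them passed with the covariate. Over the list, 2 of 16 rose against buffer, where 746 of all 13494 genes were called higher. The labels give the hours after challenge, and the hour of day of each group is not given in the sources used here.

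**Figure D3:**
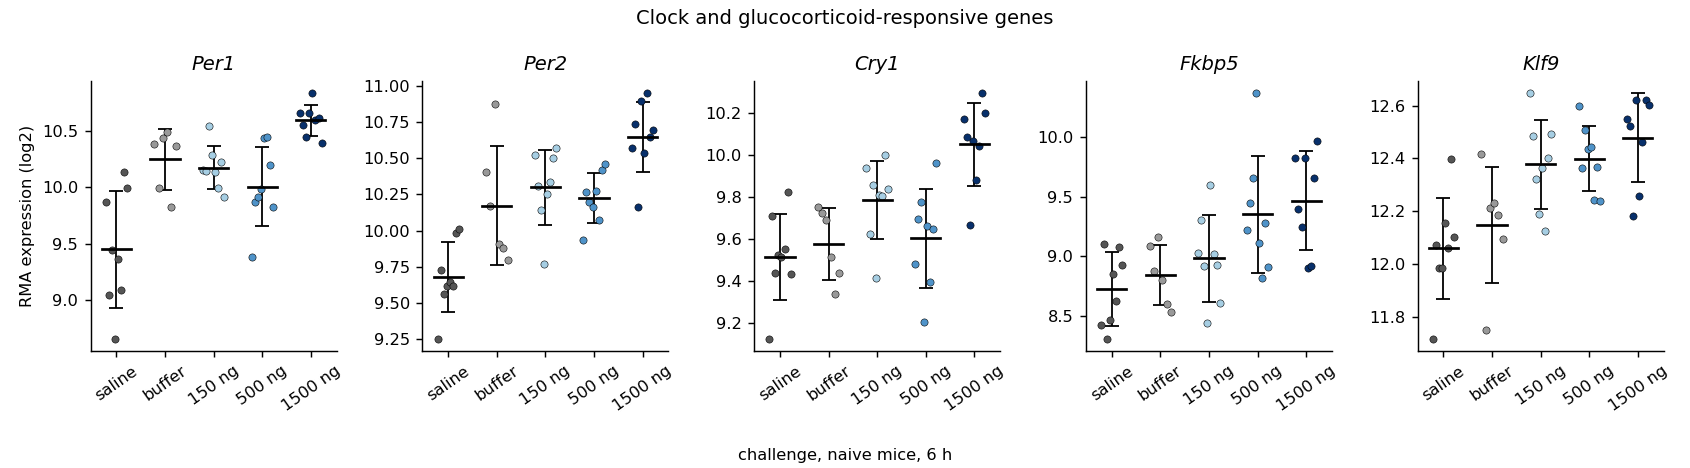
RMA expression in log2 units (vertical axes) of Per1, Per2, Cry1, Fkbp5 and Klf9 in naive mice at 6 h, by challenge; points are arrays, horizontal bars means and whiskers SDs. Mean Per1 is 9.45 in saline, 10.25 in buffer and 10.60 after 1500 ng; mean Cry1 in buffer (9.58) is near saline (9.52).

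Bpifa1, an abundant secreted protein of upper airway epithelium, ranged from 5.55 to 14.10 with a median of 12.39 in the saline group, and from 12.08 to 14.01 with a median of 13.04 in the 1500 ng group, and Reg3g, an antibacterial lectin, from 4.60 to 11.74 with a median of 9.64 in the saline group, and from 8.85 to 13.10 with a median of 10.97 in the 1500 ng group. The rises were 1.97 (SE 0.83, adjusted p = 0.0451) and 1.85 (SE 0.72, adjusted p = 0.0286). Saline replicate 1 held the lowest value of both; without it Bpifa1 differed by 1.17 (adjusted p = 0.252) and Reg3g by 1.20 (adjusted p = 0.174). The mucin Muc5b, the trefoil peptide Tff2 and the secretoglobin Scgb3a1 rose by 0.75 (adjusted p = 0.0349), 0.95 (adjusted p = 0.0394) and 0.79 (adjusted p = 0.00663), and were also lowest in saline replicate 1. Without that array they differed by 0.50 (adjusted p = 0.182), 0.66 (adjusted p = 0.176) and 0.50 (adjusted p = 0.0852). Bpifa1 lost its call without any 1 of saline replicates 1, 4 or 6 or 1500 ng replicates 1, 2, 3, 5 or 8, at 1.17 to 1.98 (adjusted p = 0.0519 to 0.252). Reg3g lost its call without any 1 of saline replicates 1, 4 or 6 or 1500 ng replicates 1 or 2, at 1.20 to 1.64 (adjusted p = 0.0687 to 0.174). Muc5b lost its call without any 1 of saline replicates 1, 4, 6 or 8 or 1500 ng replicates 1, 2, 7 or 8, at 0.50 to 0.72 (adjusted p = 0.0559 to 0.182). Tff2 lost its call without any 1 of saline replicates 1, 4, 6 or 8 or 1500 ng replicates 1, 2, 7 or 8, at 0.66 to 0.94 (adjusted p = 0.0546 to 0.176). For Scgb3a1, saline replicate 1 was the only array whose omission lost the call. None of these 5 airway genes passed with the covariate, which gave Bpifa1 2.02 (adjusted p = 0.188), Reg3g 1.99 (adjusted p = 0.128), Muc5b 0.995 (adjusted p = 0.0637), Tff2 1.18 (adjusted p = 0.0935) and Scgb3a1 0.86 (adjusted p = 0.0522). They did not pass against buffer either, with Bpifa1 0.94 (adjusted p = 0.498), Reg3g 1.06 (adjusted p = 0.355), Muc5b 0.23 (adjusted p = 0.668), Tff2 0.87 (adjusted p = 0.143) and Scgb3a1 0.47 (adjusted p = 0.219).

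Most genes of the airway lists did not pass: 2 of 13 mucus and goblet cell genes, 3 of 9 club cell genes and 3 of 8 genes of ciliated cells rose. The share of all genes that rose was 17.9%. The mucus genes most tied to type 2 inflammation did not pass, Clca1 at 1.03 (adjusted p = 0.176) and Muc5ac at 0.17 (adjusted p = 0.705). Foxj1, the master regulator of cilia, ranged from 6.79 to 8.18 with a median of 7.55 in the saline group, and from 8.32 to 9.15 with a median of 8.57 in the 1500 ng group, with all TSLP arrays above all saline arrays. It rose by 1.13 (SE 0.18, adjusted p = 1.55e-07) or 0.78 (adjusted p = 0.0085) with the covariate; buffer exceeded saline by 0.72 (adjusted p = 0.00539), and TSLP over buffer was 0.41 (adjusted p = 0.12). The cilium genes Rsph1 and Ccdc39 rose by 0.43 (adjusted p = 0.0193) and 0.26 (adjusted p = 0.0106), neither of them with the covariate (0.37 and 0.25). Rsph1 differed by 0.10 (adjusted p = 0.742) against buffer. Rsph1 lost its call without any 1 of 1500 ng replicates 2 or 5, at 0.34 to 0.38 (adjusted p = 0.0514 to 0.0751).

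Several T cell markers fell. Of 10 measured, 5 fell and none rose, against a background of 24.8% of genes lower, and none was called with the covariate or against buffer. Cd8a, a coreceptor of cytotoxic T cells, ranged from 9.05 to 10.95 with a median of 10.13 in the saline group, and from 8.68 to 9.93 with a median of 9.36 in the 1500 ng group. The ranges overlapped. Cd8a fell by 0.82 on the log2 scale (SE 0.21, adjusted p = 0.00105), and with the covariate it differed by -0.49 (adjusted p = 0.202). The others that fell were the costimulatory receptor Icos, by 0.58, the T cell receptor chains Cd3d and Cd3e, by 0.37 and 0.25, and the helper T cell coreceptor Cd4, by 0.34. Cd3d lost its call without any 1 of saline replicates 1, 2, 3, 4, 5 or 7 or 1500 ng replicates 2, 4, 5 or 6, at -0.37 to -0.28 (adjusted p = 0.0534 to 0.159). Cd3e lost its call without any 1 of saline replicates 1, 2, 4, 5, 6 or 7 or 1500 ng replicates 2, 3, 4, 5 or 6, at -0.26 to -0.20 (adjusted p = 0.0517 to 0.142). Cd4 lost its call without any 1 of saline replicates 4, 5, 6 or 7 or 1500 ng replicates 1, 3, 4, 6 or 8, at -0.34 to -0.26 (adjusted p = 0.0511 to 0.145). With the covariate the other 4 gave Icos -0.20 (adjusted p = 0.615), Cd3d -0.52 (adjusted p = 0.0598), Cd3e -0.26 (adjusted p = 0.184) and Cd4 -0.26 (adjusted p = 0.339), and against buffer the 5 gave Cd8a -0.32 (adjusted p = 0.347), Icos -0.29 (adjusted p = 0.359), Cd3d -0.18 (adjusted p = 0.499), Cd3e -0.04 (adjusted p = 0.834) and Cd4 -0.03 (adjusted p = 0.915). Skap1, an adaptor of T cell receptor signalling, fell by 0.65 (SE 0.18, adjusted p = 0.00198) and differed by -0.65 (adjusted p = 0.0403) under the covariate fit and -0.41 (adjusted p = 0.125) relative to buffer.

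Of 8 monocyte and interstitial macrophage markers, 4 fell and 1 rose, beside 24.8% of all genes lower and 17.9% higher. Cx3cr1, the fractalkine receptor of patrolling monocytes, ranged from 8.40 to 9.07 with a median of 8.55 in the saline group, and from 7.89 to 8.34 with a median of 8.03 in the 1500 ng group, with every TSLP array below every saline array. It fell by 0.61 on the log2 scale (SE 0.14, adjusted p = 0.000169) and differed by -0.61 (adjusted p = 0.0136) with the covariate; buffer differed from saline by -0.41 (adjusted p = 0.0491), and TSLP from buffer by -0.20 (adjusted p = 0.361). Csf1r, the growth factor receptor of macrophages, fell by 0.29 (adjusted p = 8.89e-06), with -0.09 (adjusted p = 0.288) under the covariate fit and -0.13 (adjusted p = 0.101) relative to buffer. C1qa rose by 1.57 (SE 0.26, adjusted p = 8.08e-07) while C1qb, its partner in the same complement protein, fell by 0.19 (adjusted p = 0.0275) and C1qc differed by -0.16 (adjusted p = 0.389). C1qb lost its call without any 1 of saline replicates 6 or 8 or 1500 ng replicate 2, at -0.18 to -0.14 (adjusted p = 0.0506 to 0.108). Neither C1q call held with the covariate, at C1qa 0.71 (adjusted p = 0.0813) and C1qb -0.06 (adjusted p = 0.722), or against buffer, at C1qa 0.32 (adjusted p = 0.467) and C1qb -0.19 (adjusted p = 0.0836).

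The remaining cell lists gave mixed directions, and their counts stand beside 17.9% of all genes higher and 24.8% lower. Of 10 dendritic cell markers, 4 rose and 2 fell, and the class II chains moved apart: H2-Aa rose by 0.62 (adjusted p = 4.54e-06) and H2-Ab1 fell by 0.26 (adjusted p = 4.06e-05), while other probe sets differed by 0.09 and 0.04 for H2-Aa and by 0.03 and 0.15 for H2-Ab1. Both calls were lost with the covariate, at H2-Aa 0.29 (adjusted p = 0.116) and H2-Ab1 -0.16 (adjusted p = 0.0844). They were also lost against buffer, at H2-Aa 0.14 (adjusted p = 0.443) and H2-Ab1 -0.08 (adjusted p = 0.352). Cell division genes fell in 3 of 9 cases and rose in none, led by the spindle kinase Bub1 (fell by 0.71, adjusted p = 0.00549), and none passed with the covariate, where Bub1 differed by -0.52 (adjusted p = 0.199), or against buffer, where it differed by -0.64 (adjusted p = 0.0524). Of 5 eosinophil markers 1 fell, Siglecf, a lectin that alveolar macrophages also carry, by 0.53 (adjusted p = 0.00723) but differing by -0.58 (adjusted p = 0.0515) under the covariate fit and -0.02 (adjusted p = 0.963) relative to buffer. The eosinophil granule gene Prg2 differed by -0.14 (adjusted p = 0.746). Endothelial markers rose in 4 of 10 and fell in 1, and fibroblast and smooth muscle markers rose in 4 of 12 and fell in 1; among them only Tagln, an actin-binding protein of smooth muscle, passed with the covariate, at 0.38 (adjusted p = 0.0147), and it was not called against buffer (0.19, adjusted p = 0.236).

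Genes of organs next to the lung were called in neither direction: none of 9 gullet, 8 heart, 8 skeletal muscle and 6 fat genes passed. Of all genes 42.8% were called. The skeletal muscle genes had a median difference of -0.58, with saline replicate 6 as the only high array. Heart genes had a median of 0.34 (7 of 8 higher) and fat genes of 0.37 (4 of 6 higher). Saline replicate 1 was low for fat Adipoq (4.16, the others 7.83 to 10.75) and heart Myl7 (10.175, the others 12.13 to 13.29). That array was also the lowest of its group for the airway genes Bpifa1, Reg3g, Muc5b, Tff2 and Scgb3a1. Neither the saline nor the 1500 ng group held an array with gullet keratins, but 2 of the 6 buffer arrays did. Skeletal muscle genes were higher in buffer than in saline by a median of 1.14. Against buffer, 4 of the 8 skeletal muscle and 5 of the 9 gullet genes were called lower, beside 1325 of all 13494 genes.

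Of the 15 largest rises, H2ac19, a histone gene, ranged from 9.13 to 11.53 with a median of 10.46 in the saline group, and from 11.70 to 12.51 with a median of 12.32 in the 1500 ng group, without overlap. It rose by 1.77 (SE 0.22, adjusted p = 3.73e-10) but by 0.94 (adjusted p = 0.00243) under the covariate fit and 0.45 (adjusted p = 0.173) relative to buffer. The actin regulators Cfl1 and Pfn1 rose by 1.52 and 1.52, the vesicle protein Rabac1 by 1.63 and the cell cycle inhibitor Cdkn1b by 1.51; with the covariate they differed by 0.57, 0.54, 0.76 and 0.60, of which Pfn1 did not pass (adjusted p = 0.0874). Relative to buffer none of the 4 passed, with Cfl1 0.52 (adjusted p = 0.0697), Pfn1 0.39 (adjusted p = 0.28), Rabac1 0.43 (adjusted p = 0.167) and Cdkn1b 0.48 (adjusted p = 0.124). Elf4, a transcription factor of lymphocytes, rose by 1.45 (SE 0.25, adjusted p = 1.69e-06) and differed by 0.29 (adjusted p = 0.403) with the covariate. Hyou1, a chaperone of the endoplasmic reticulum, rose by 1.64 (SE 0.23, adjusted p = 7.36e-09), and differed by 0.59 (adjusted p = 0.0324) under the covariate fit and 0.58 (adjusted p = 0.0865) relative to buffer; its second probe set differed from saline by 0.12.

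Also among the 15 largest rises were Erf, a repressor of the ETS family, by 1.39, Atp5g2, a subunit of the mitochondrial ATP synthase, by 1.504, and R3hdm4 by 1.49; with the covariate the values were 0.70, 0.86 and 0.75. In buffer against saline these 3 genes were higher by 0.79, 1.07 and 1.08, and TSLP over buffer did not pass for 2 of them, at Atp5g2 0.43 (adjusted p = 0.13) and R3hdm4 0.41 (adjusted p = 0.193). Gp9, a platelet glycoprotein, rose by 0.88 (SE 0.15, adjusted p = 8.96e-07) or 0.81 (adjusted p = 0.0019) with the covariate. For Gp9, buffer exceeded saline by 0.72 (adjusted p = 0.000913) and TSLP differed from buffer by 0.16 (adjusted p = 0.514). Mpp3, a membrane scaffold protein, rose by 0.78 (SE 0.18, adjusted p = 0.000191) or 0.85 (adjusted p = 0.00717) with the covariate, and differed from buffer by 0.44 (adjusted p = 0.105).

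The 10 largest falls were between 0.93 and 1.12 on the log2 scale. Gpat2, an acyltransferase of lipid synthesis, ranged from 7.37 to 8.32 with a median of 8.09 in the saline group, and from 6.50 to 7.25 with a median of 6.85 in the 1500 ng group, and every TSLP array lay below every saline array. It fell by 1.05 (SE 0.20, adjusted p = 9.81e-06), with -0.67 (adjusted p = 0.0485) under the covariate and -0.74 (adjusted p = 0.0126) against buffer. Mettl22, a methyltransferase, fell by 0.99 (SE 0.14, adjusted p = 8.61e-09), also without overlap, with -0.40 (adjusted p = 0.0268) under the covariate and -0.59 (adjusted p = 0.00346) against buffer. Stab2, a scavenger receptor of endothelium that takes up hyaluronan, fell by 0.93 (SE 0.15, adjusted p = 2.36e-07), with -0.68 (adjusted p = 0.00644) under the covariate; against buffer it did not pass (-0.34, adjusted p = 0.121), and buffer itself was below saline by -0.58 (adjusted p = 0.0067).

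Cyp4f39, a fatty acid hydroxylase, was called lower in the fit without the covariate, with it and against buffer. It ranged from 8.58 to 9.11 with a median of 8.82 in the saline group, and from 7.86 to 8.36 with a median of 8.09 in the 1500 ng group, with no overlap. It fell by 0.75 (SE 0.13, adjusted p = 1.06e-06), with -0.64 (adjusted p = 0.00389) under the covariate and -0.64 (adjusted p = 0.000713) against buffer. Ccnjl, a cyclin-like gene, fell by 0.82 (adjusted p = 1.82e-06), with -0.77 (adjusted p = 0.00217) under the covariate and -0.43 (adjusted p = 0.0451) against buffer. Of the other large falls, Cideb, Tmem74 and Fam124b were called under the covariate as well (-0.54, -0.63 and -0.84), and Ptchd1, Nr5a2 and Cox8b were not (-0.61, -0.77 and -0.26). Against buffer Cideb was called (-0.54, adjusted p = 0.0368), and the others were not, at Tmem74 -0.28 (adjusted p = 0.342), Fam124b -0.37 (adjusted p = 0.214), Ptchd1 0.12 (adjusted p = 0.731), Nr5a2 -0.25 (adjusted p = 0.639) and Cox8b -0.82 (adjusted p = 0.121). The long noncoding RNA Kcnq1ot1 rests on 1 array: 1500 ng replicate 7 was at 3.53 and the other 7 between 10.72 and 11.28. It fell by 0.97 (adjusted p = 0.00953), and without that array the difference was -0.03 (adjusted p = 0.826). It did not pass with the covariate (-0.89, adjusted p = 0.125) or against buffer (-0.68, adjusted p = 0.165).

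**Figure D4:**
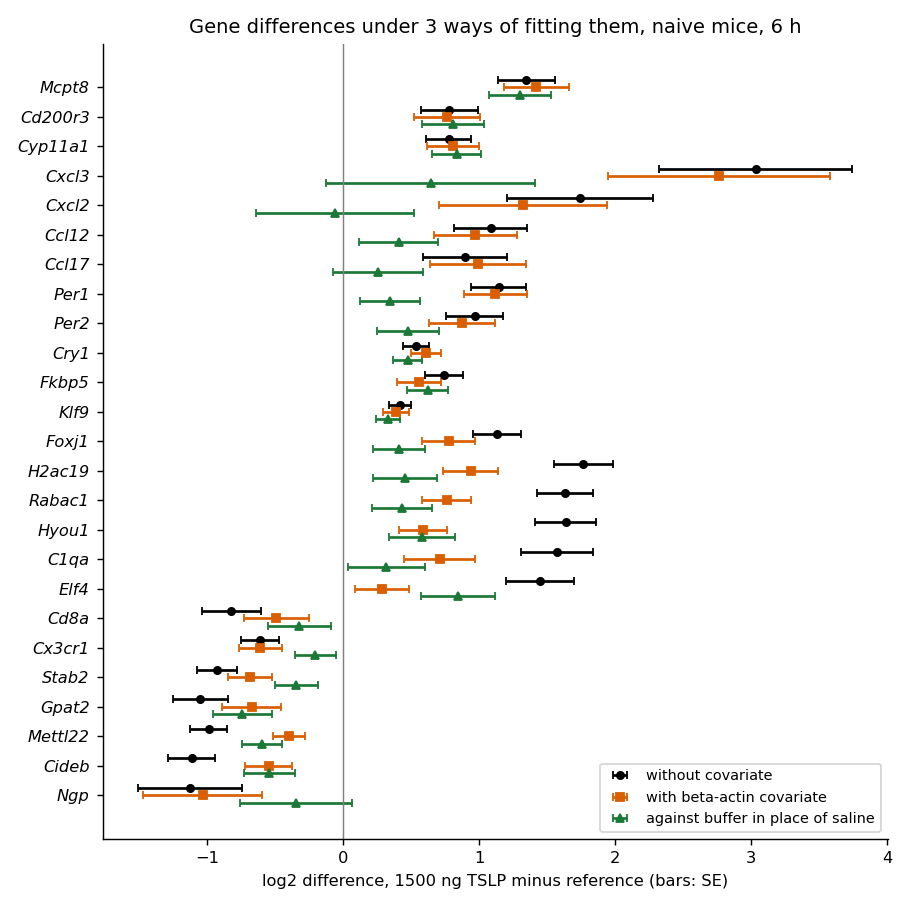
Log2 differences (horizontal axis; whiskers are SEs) of 25 genes for 1500 ng TSLP against saline without a covariate (circles), with the beta-actin covariate (squares), and against buffer (triangles). Mcpt8, Cd200r3, Cyp11a1, Cry1, Fkbp5 and Klf9 have points close together in all 3, while Cxcl3, Cxcl2, H2ac19, Rabac1 and C1qa lie nearer 0 against buffer.

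The naive response was next compared with that of OVA-sensitized mice, each against its own saline group at 6 h. The 1500 ng effect differed for 983 genes (7.28%), and for 58 (0.43%) with the covariate. Tnfaip6, which binds hyaluronan in inflamed matrix, and Aldh1a3, a retinoic acid synthase, were not called in naive mice, at 0.20 (adjusted p = 0.488) and 0.73 (adjusted p = 0.169), and differed by 1.52 and 2.74 in sensitized mice. The effects differed by 1.33 (SE 0.31, adjusted p = 0.00956) for Tnfaip6 and 2.01 (SE 0.61, adjusted p = 0.0325) for Aldh1a3, and with the covariate by 1.25 (adjusted p = 0.0419) and 1.83 (adjusted p = 0.105). Myocd, a coactivator of smooth muscle genes, Aass, a lysine-degrading enzyme, and Tnfrsf11b, the decoy receptor osteoprotegerin, also had higher effects in sensitized mice, by 0.95, 1.06 and 0.98. The 5 most negative differences were in Itih1 (-1.05, adjusted p = 0.00697), Kif5c (-0.94, adjusted p = 0.00863), Serpina7 (-0.94, adjusted p = 0.0187), Slco1a5 (-0.92, adjusted p = 0.032) and Muc16 (-0.87, adjusted p = 0.0404); Itih1 and Kif5c were also called with the covariate. In naive mice alone Kif5c, a kinesin, had fallen by 0.36 (adjusted p = 0.0477), with -0.04 (adjusted p = 0.905) under the covariate fit and -0.31 (adjusted p = 0.193) relative to buffer. Kif5c lost its call without any 1 of saline replicates 1, 4, 5, 6 or 7 or 1500 ng replicates 1, 2, 4 or 8, at -0.37 to -0.28 (adjusted p = 0.0513 to 0.146).

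For Mcpt8 the effect in sensitized mice was 1.63 against 1.35 in naive mice, a difference of 0.28 (SE 0.30, adjusted p = 0.592). Cyp11a1 gave 0.66 and 0.78 (difference -0.12, SE 0.24, adjusted p = 0.798), and Per2 0.99 and 0.97 (difference 0.02, SE 0.30, adjusted p = 0.976). None of these 3 differences passed the test.

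At 24 h the 1500 ng effect in naive mice, against saline of 24 h, was called for 107 genes (0.793%). The effect at 24 h differed from that at 6 h for 4754 genes (35.2%), and for 256 (1.9%) with the covariate. Mcpt8 was still higher at 24 h, by 0.98 (adjusted p = 0.00661), as was Cyp11a1, by 0.63 (adjusted p = 0.0438). The IgE receptor genes, not called against saline at 6 h, rose against saline at 24 h (Ms4a2 was called against buffer at 6 h): Ms4a2 by 0.79 (adjusted p = 0.0184) and Fcer1a by 0.77 (adjusted p = 0.0374). The time difference was 0.80 (adjusted p = 0.0195) for Fcer1a, which was lost with the covariate (0.69, adjusted p = 0.248), and 0.45 (adjusted p = 0.166) for Ms4a2.

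Clock genes split between the time points. Per1 and Per2 were higher at 24 h too, by 1.14 (adjusted p = 0.000432) and 0.77 (adjusted p = 0.0462). Cry1 at 24 h differed by -0.12 (adjusted p = 0.575), and its effects at both times differed by -0.65 (SE 0.14, adjusted p = 9.37e-05) and by -0.74 (adjusted p = 0.00353) with the covariate. Npas2, a partner of Arntl, was not called at 6 h (-0.04, adjusted p = 0.887) and fell at 24 h by 1.22 on the log2 scale (adjusted p = 0.000145), a time difference of -1.17 (SE 0.29, adjusted p = 0.000943); the covariate fit gave -1.12 (adjusted p = 0.0449). Several of the largest rises of 6 h were not called at 24 h: Hyou1, Rabac1, R3hdm4, Elf4 and H2ac19 gave -0.07, -0.17, -0.21, -0.57 and -0.25 at 24 h, with time differences of -1.71, -1.80, -1.71, -2.02 and -2.02. With the covariate only the difference of H2ac19 was called among these 5, at -0.998 (adjusted p = 0.0327). The largest positive time differences were in Ngp (1.56, adjusted p = 0.017), Cox8b (1.49, adjusted p = 0.0131), Cyp26b1, which degrades retinoic acid (1.42, adjusted p = 0.0265), Cdca5, a cohesin regulator (1.32, adjusted p = 0.00449), and Mettl22 (1.28, adjusted p = 2.83e-07), of which Mettl22 alone was called with the covariate (0.55, adjusted p = 0.0446).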

How the data were processed

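RNA of whole lungs was hybridised to Affymetrix arrays. The deposited table holds the authors' log2 values for 26166 probe sets on 149 arrays in 20 groups; the submitters' processing notes name RMA as the method, and the version is not given in the sources used here. Array medians ran from 8.97 to 9.16, and no 2 arrays were identical. A single gene was named by 22892 probe sets, several by 260 and none by 3014 through the platform annotation, with symbols updated from RefSeq for 22834. The probe set with the highest mean stood for each of 13494 genes.

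limma 3.58.1 in R 4.3.3 was fitted with 1 mean per group over all 149 arrays (129 residual degrees of freedom), with Benjamini-Hochberg adjustment over all genes at 0.05; every adjusted p in the text is from this tool. It was tested on simulated data. The text names the 15 largest rises and 10 largest falls, the 10 largest rises and 8 largest falls called with and without the beta-actin covariate, leading members of each list and those needed to account for it, 16 genes fixed by name, and the 5 largest differences in each direction between effects; predicted and clone genes were skipped. Some of these are given only in the counts. Alternatives were other probe set rules, quantile normalization, array weights, a filter on dim genes, a replicate block, the covariate, buffer as reference and leaving out arrays. The members and lists were chosen with earlier results of these data known. Nothing states how the animals were batched, so p-values measure the spread between these arrays. Leaving out saline replicates 5 and 6 together, and the pyruvate carboxylase covariate, were chosen after seeing the data.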

Additional observations from a re-analysis of the deposited data

Results flagged for a closer look

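Of 256 groups of 8 arrays checked over the genes named above, 28 held 1 array whose gap to the nearest of the others was above Dixon's 95% critical value for its group's range; chance gives about 1 in 20. Expression is in log2 units, with the nearest array's value after the array's own. Adipoq and Myl7 were not part of the checks in this section.

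Saline replicate 2 was the highest of its group for Aldh1a3 (8.002 against 6.63), Ccl11 (9.51 against 8.31), Ccl22 (10.48 against 9.05), Ccl4 (8.29 against 7.36), Clca1 (7.80 against 5.60), Il1rn (9.96 against 8.66), Mt2 (12.96 against 11.83) and Ptgs2 (9.58 against 9.06). Saline replicate 4 was the highest of its group for Serpina7 (7.81 against 7.28). Saline replicate 6 was the highest of its group for Bub1 (8.92 against 7.78), Fam124b (8.40 against 7.60) and Tnnc2 (13.36 against 7.32). Saline replicate 6 was the lowest of its group for Stat5a (10.09 against 10.77) and Stat5b (10.22 against 10.55). Saline replicate 8 was the lowest of its group for Hdc (11.70 against 11.87). Of the 1500 ng arrays, replicate 1 was the highest of its group for C1qb (13.22 against 13.01), Ccl11 (10.04 against 9.03), Ccl4 (8.63 against 7.82), Mt2 (13.38 against 12.28) and Tnfaip6 (7.002 against 6.15). Replicate 2 of the 1500 ng group was the lowest of its group for Bub1 (6.27 against 6.84). Of the 1500 ng arrays, replicate 3 was the highest of its group for Cx3cr1 (8.34 against 8.08). Of the 1500 ng arrays, replicate 3 was the lowest of its group for Ptgs2 (8.34 against 9.21). Of the 1500 ng arrays, replicate 5 was the highest of its group for Gp9 (10.12 against 9.35). Of the 1500 ng arrays, replicate 7 was the lowest of its group for C1qc (10.003 against 10.35), Kcnq1ot1 (3.53 against 10.72) and Mcpt4 (5.74 against 6.41). Replicate 8 of the 1500 ng group was the lowest of its group for Ddit4 (11.54 against 11.90).

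By the interaction term, the 1500 ng effect at 6 h differed between OVA-sensitized and naive mice for 15 of the 127 genes named above (limma, adjusted p under 0.05), and for 3 of them with the beta-actin covariate. Over all genes the shares were 7.28% and 0.43%, and some of the genes were named for such a difference. Log2 differences of the effects are given with the covariate's value in parentheses. They were more positive in sensitized mice for Aass 1.06 (1.03), Aldh1a3 2.01 (1.83), Cd274 0.61 (0.44), Jak1 0.31 (0.24), Myocd 0.95 (0.68), Nr3c1 0.41 (0.25), Tnfaip6 1.33 (1.25) and Tnfrsf11b 0.98 (0.995). They were more negative in sensitized mice for Itih1 -1.05 (-0.97), Kif5c -0.94 (-0.80), Muc16 -0.87 (-0.79), Serpina7 -0.94 (-0.76), Slco1a5 -0.92 (-0.74), Star -0.42 (-0.34) and Stat6 -0.22 (-0.15).

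By the interaction term, the effect in naive mice differed between 24 h and 6 h for 50 of the 127 genes named above (limma, adjusted p under 0.05), and for 8 of them with the beta-actin covariate. Over all genes the shares were 35.2% and 1.9%, and some of the genes were named for such a difference. Log2 differences of the effects are given with the covariate's value in parentheses. They were more positive at 24 h for Bub1 0.86 (0.62), Ccr7 0.48 (0.54), Cd8a 1.05 (0.64), Cdca5 1.32 (0.58), Cideb 1.14 (0.43), Cox8b 1.49 (0.53), Cpa3 1.01 (0.86), Csf1r 0.39 (0.15), Cyp26b1 1.42 (1.89), Cyp4f39 0.87 (0.74), Fcer1a 0.80 (0.69), Gpat2 0.81 (0.35), H2-Ab1 0.29 (0.16), Il17rb 0.58 (0.20), Mettl22 1.28 (0.55), Ngp 1.56 (1.44), Skap1 0.82 (0.83), Stab2 1.11 (0.80) and Tmem74 0.79 (0.30). They were more negative at 24 h for Atp5g2 -1.69 (-0.89), C1qa -1.55 (-0.48), Ccdc39 -0.30 (-0.29), Cd274 -0.55 (-0.086), Cdkn1b -1.70 (-0.58), Cfl1 -1.63 (-0.46), Clock -0.44 (-0.13), Cry1 -0.65 (-0.74), Ddit4 -0.46 (-0.062), Elf4 -2.02 (-0.58), Erf -1.68 (-0.82), Foxj1 -0.99 (-0.55), Gata2 -0.56 (-0.34), Gp9 -0.85 (-0.77), H2-Aa -0.62 (-0.21), H2ac19 -2.02 (-0.998), Hyou1 -1.71 (-0.41), Il13ra1 -0.55 (-0.29), Mpp3 -0.79 (-0.87), Myocd -0.68 (0.021), Npas2 -1.17 (-1.12), Nr3c1 -0.32 (0.10), Pfn1 -1.56 (-0.35), Ptgs2 -0.73 (-0.56), R3hdm4 -1.71 (-0.78), Rabac1 -1.80 (-0.72), Sgk1 -0.36 (-0.28), Stat5a -0.32 (-0.12), Stat5b -0.21 (-0.042), Tagln -0.84 (-0.45) and Zbtb16 -1.66 (-1.21).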

How the results depend on the processing

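The count of 5774 genes stayed between 5102 and 6106 when each array was left out in turn. It was 11191 when every probe set was tested on its own and 4070 in the 16 arrays alone. With the beta-actin covariate it was 764, and against buffer 2071. The share of calls that were higher, 41.9%, ran from 35.1% to 49% over the settings with at least 100 calls. The replicate numbers do not pair the animals, since correlations of deviations ran from -0.254 to 0.356; with the replicate number as a block 3512 genes were called. With the block and the covariate in the 16 arrays alone 2 were called, and with the covariate alone 0 (limma; 2827 at an unadjusted p under 0.05). The difference between sensitized and naive effects fell from 983 to 58 genes with the covariate, and that between 24 h and 6 h from 4754 to 256. The beta-actin difference ran from -0.88 to -0.67 without single arrays, and that of pyruvate carboxylase was -0.033. The cause of these changes was not tested. A Gapdh covariate was planned and not run, since its control probe sets are not used here.

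The following genes had the opposite sign under an alternative; their log2 differences are given. With the mean of all probe sets of a gene, Stat5b was -0.19, Bcl2 0.19, Stat6 0.061, Aplnr 0.0014, Jak1 -0.027, Nr3c1 -0.021 and Stat3 -0.0060. In the 16 arrays alone with the replicate block and the beta-actin covariate, Elf4 was -0.080, Ngp 0.91, Cox8b 0.58, Ptchd1 0.016, Fam124b 0.27, Stat5b -0.11, Stat5a -0.12, Bcl2 0.015, Stat2 -0.38, Igtp 0.020, Rela -0.14, Ier3 -0.10, Rarg -0.29, Mcm5 0.25, Bub1 0.069, Siglecf 0.21, Icos 0.061, Cd4 0.076, Pparg 0.0067, Tinagl1 -0.058, Aplnr 0.0014, Pecam1 -0.050, Flt1 -0.22, Cdca5 0.071, C1qb 0.10, Cd3e 0.13, Cd86 0.023, Cpa3 0.28, Nr3c1 -0.17 and Socs2 -0.18. In the 16 arrays alone with the covariate and no block, Stat5b was -0.077, Stat5a -0.14, Bcl2 0.0029, Stat2 -0.26, Rela -0.094, Ier3 -0.15, Junb -0.055, Flt1 -0.083, Il1rn -0.035, Jak1 -0.022 and Nr3c1 -0.087. With the beta-actin covariate over all arrays, Stat6 was 0.040, Prf1 -0.019, Flt1 -0.019, Clock -0.053 and Nr3c1 -0.084. With buffer in place of saline, Cxcl2 was -0.059, Ptchd1 0.12, Birc3 -0.039, Txnrd1 -0.0071, Aplnr 0.064, Krtdap -2.23, Cxcl1 -0.41, Errfi1 -0.065, Jak1 -0.0029, Mt2 -0.093, Ptgs2 -0.19, Saa3 -0.022, Stat3 -0.040 and Vcam1 -0.11.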
